A study of Homo sapiens with 23 samples.

Results

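The transcriptional state of breast cancer cells was measured 24 h after the start of degradation of the transcription factor TRPS1. The comparison was chosen by treatment and time from the labels, and it uses 7 of the 23 libraries of the series: 3 of cells treated with the degraders for 24 h (replicates 2, 3 and 4) and 4 of cells given the vehicle DMSO at 0.1% v/v for 24 h (replicates 1 to 4). All 23 libraries came from T47D, a luminal, estrogen receptor-positive breast cancer cell line, and from a single clone of it, clone 28. In this clone an inducible degron tag had been put into the endogenous TRPS1 gene, and, per the methods of the study, the copies without the tag had been knocked out, so that the tagged protein was the only TRPS1 made. Treated cells received dTAG-13 at 50 nM together with dTAGV-1 at 50 nM, small molecules that bring the tagged protein to ubiquitin ligases for destruction. The other 16 libraries are the same clone after 0.5, 1, 2 and 4 h of the same treatment, with 4 replicates each. No cells without the tag were analysed here, so an effect of the compounds themselves and an effect of the loss of TRPS1 cannot be told apart. All groups were grown in serum with insulin and all carried the tag, the DMSO cells included.

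TRPS1 is an atypical member of the GATA zinc finger family that binds the same short motif as GATA3 and is known mainly as a repressor. It is strongly expressed in the luminal cells of the breast, beside the luminal regulators ESR1 (the estrogen receptor), GATA3 and FOXA1. PRO-seq labels the RNA in the active site of engaged RNA polymerase, so that the reads on a gene follow its ongoing transcription and not the amount of stored mRNA. After a whole day, genes that respond to the factor itself and genes that follow from a changed state of the cells are measured together.

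Each library was a vector of reads per gene. DMSO libraries held 7143166 to 13910436 reads and 24 h libraries 8967338 to 17571616 reads. Levels below are in CPM, the reads of a gene scaled to the effective library size after TMM normalization in edgeR. TRPS1 (chromosome 8, 115408496 to 115809673, minus strand), measured as transcription, was 9171, 7997, 10157 and 9359 CPM in DMSO replicates 1 to 4 and 9757, 11631 and 11979 CPM in 24 h replicates 2 to 4. The 24 h values overlapped the DMSO values, and the log2 fold change was 0.28 ± 0.09 (± SE; edgeR adjusted p 0.288, and 0.000135 with replicate number as a block). The degron acts on the protein, so this value does not check the degradation. Among the genes kept, 763 had a log2 fold change under -1 and 0 of them were called. They included 227 processed pseudogenes and 187 snoRNAs. Relative to their mean over the 7 libraries, the median of these genes was 2.57 in DMSO replicate 1, 1.36 in DMSO replicate 2 and 0.33 to 0.892 in the other 5 libraries. HSPA8, a constitutive heat shock chaperone and host of snoRNA genes, was among them at 2884, 1956, 517 and 717 CPM in DMSO and 561, 374 and 467 CPM at 24 h. DMSO replicates 1 and 2 stood apart for such genes, and their part in other results was not tested beyond the fits without them.

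Transcription differed between 24 h and DMSO at 225 of 26057 genes (0.863%), 147 higher (0.564%) and 78 lower (0.299%), at an edgeR quasi-likelihood adjusted p under 0.1. The differences were small: called genes changed by a median of 0.35 on the log2 scale in either direction, and 27 called genes (19 higher, 8 lower) reached 1.5-fold. Of the higher genes 112 were protein coding and 32 lncRNA genes, and of the lower genes 69 and 7. With the replicate number as a block, 691 genes (2.65%) were called, 372 higher (1.43%) and 319 lower (1.22%), and these included all 225. The median log2 fold change over all genes was 0.00256. Scaling by total counts alone gave 96 higher and 14 lower genes, a larger share of rises than under TMM. Falls outnumbered rises when only replicates 2 to 4 of both groups were fitted with the block (382 higher, 764 lower) and with all groups and the block but without replicate number 1 (463 higher, 633 lower) or 4 (142 higher, 165 lower). The number of calls also rested on single libraries: it was 106 without 24 h replicate 3 and 125 without 24 h replicate 4.

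**Figure D1:**
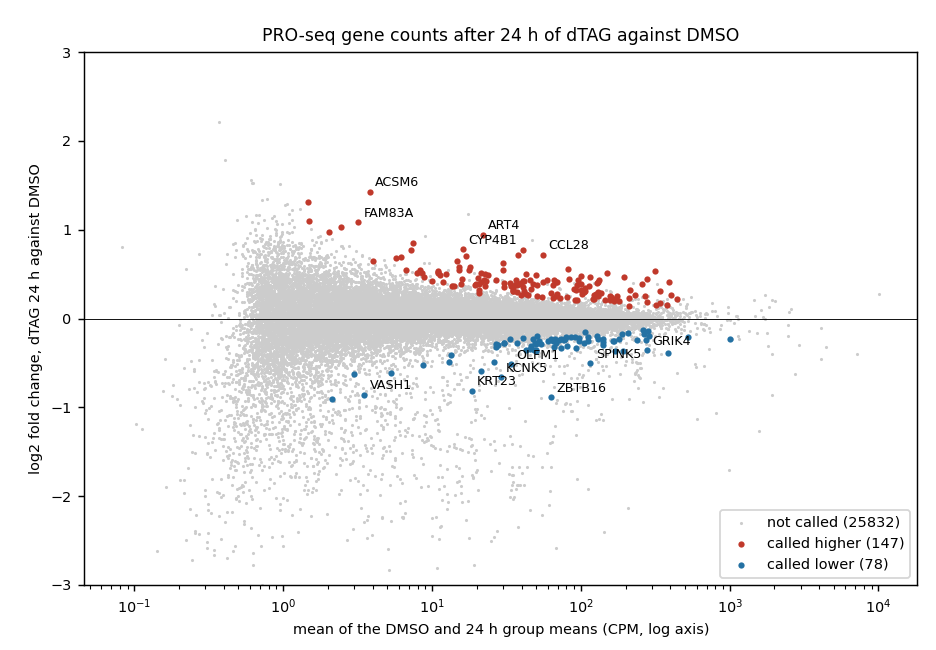
Mean of the DMSO and 24 h group means (CPM, log axis) against the log2 fold change of 24 h against DMSO, one point per gene, with 147 called higher genes in red, 78 called lower genes in blue and the rest in grey. Called genes lie mostly within 1 log2 unit of 0, and the grey points far below 0 at low CPM were not called (13 genes lie beyond the y axis limits of -3 and 3).

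Of the 14 largest called rises among genes whose mean count reached 100 a library, ART4, CYP4B1, EMCN, CCL28 and ZNF692 led. ART4 (chromosome 12, 14825569 to 14843526, minus strand) encodes an ADP-ribosyltransferase-like protein that carries the Dombrock blood group. It was 13.9, 12.6, 17.6 and 15.6 CPM in DMSO and 25.3, 28.8 and 32.8 CPM at 24 h. All 24 h libraries were above all DMSO libraries, as in 5.22% of all genes (9.49% in either direction), and the log2 fold change was 0.95 ± 0.11 (edgeR adjusted p 0.000228). ART4 was already high at 0.5 h (0.84 against DMSO on the log2 scale), and it differed from its 4 h level by 0.01. C12orf60 overlaps ART4 on the other strand with a mean of 687.9 counts, and strand use in the counting is not stated.

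CYP4B1, a cytochrome P450 of fatty acid hydroxylation, went from 12.1, 14.1, 11.02 and 10.2 CPM to 19.9, 20.2 and 20.7 CPM, with a log2 fold change of 0.78 ± 0.10 (edgeR adjusted p 0.000269). EMCN, the mucin-like surface protein endomucin, went from 30.6, 25.2, 34 and 30.03 CPM to 46.6, 52.3 and 55.2 CPM, a log2 fold change of 0.77 ± 0.12 (edgeR adjusted p 0.002). CCL28, a mucosal chemokine of exocrine glands, went from 40.3, 36.2, 45.9 and 46.7 CPM to 62.2, 69.6 and 76.9 CPM, a log2 fold change of 0.72 ± 0.11 (edgeR adjusted p 0.002). In each of these genes every 24 h library lay above every DMSO library. EMCN is otherwise known as an endothelial marker, while the endothelial markers PECAM1 and VWF stayed at or under 3.85 CPM in all 7 libraries and were not called. ZNF692, a zinc finger gene, went from 26.6, 32.8, 28.6 and 27.4 CPM to 55.4, 42.7 and 43.99 CPM, a log2 fold change of 0.71 ± 0.10 (edgeR adjusted p 0.000988).

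The matrix and surface genes among these rises were VCAN, the proteoglycan versican (0.65 ± 0.10), CDH10, a cadherin (0.63 ± 0.11), EPHA8, an ephrin receptor (0.58 ± 0.08), and P2RY10, a lysophospholipid-responsive receptor (0.58 ± 0.15). The values are log2 fold changes, each with its SE, and edgeR gave adjusted p-values of 0.00138, 0.00689, 0.000739 and 0.0842. P2RY10 was the weakest, with 24 h libraries at 14.01, 19.4 and 20.8 CPM against 13.2, 11.2, 12.2 and 11.99 CPM in DMSO, and it lost its call in 6 of 7 fits without 1 library. The lipid enzymes were ACSM1, a medium-chain acyl-CoA synthetase (0.55 ± 0.13, adjusted p 0.0564 in edgeR), and AGPAT4, which makes phosphatidic acid (0.54 ± 0.10, adjusted p 0.0105 in edgeR). AGPAT4 was at 0.08 at 2 h and 0.23 at 4 h, on the log2 scale against DMSO, and the difference between 24 h and 4 h was not called (adjusted p 0.335, edgeR). ACSM1 lost its call in 6 of the 7 fits. B4GALNT3, a glycosyltransferase, rose by 0.54 ± 0.09 on the log2 scale (adjusted p 0.002 in edgeR). LINC01768 and ENSG00000266850, both long noncoding, rose by 0.71 ± 0.11 and 0.56 ± 0.08 (adjusted p 0.00177 and 0.000988 in edgeR). ENSG00000266850 shares its strand with ENSG00000265943 and lies opposite RBBP8, which has more reads than either, and reads could be split between them.

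ZBTB16, a zinc finger repressor also called PLZF and a known target of progesterone and glucocorticoid receptors, had the largest fall. It was 92.8, 70.9, 83.96 and 79.2 CPM in DMSO and 43.4, 41.5 and 47.5 CPM at 24 h. The groups did not overlap (4.27% of all genes were lower in this way), and the log2 fold change was -0.89 ± 0.12 (edgeR adjusted p 0.000613). ZBTB16 (chromosome 11, 114059041 to 114256765, plus strand) had log2 fold changes of 0.32 at 0.5 h and -0.09 at 4 h, and its level at 24 h was below that at 4 h by a log2 difference of -0.79 (edgeR adjusted p 0.00325). KRT23, a type I keratin, fell from 24.8, 24.01, 25.98 and 19.6 CPM to 13.7, 14.2 and 12.4 CPM, a log2 fold change of -0.81 ± 0.10 (edgeR adjusted p 0.000278), and was also below its 4 h level, by -0.52 (edgeR adjusted p 0.0308). It overlaps ENSG00000234477 on the other strand, which had a mean of 83.43 counts.

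KCNK5, a potassium channel induced by estrogen, went from 40.6, 35.1, 35.2 and 30.7 CPM to 23.6, 21.7 and 21.8 CPM, a log2 fold change of -0.66 ± 0.08 (edgeR adjusted p 0.000269). GRIK4 and ANO1 encode other membrane channels, a kainate-type glutamate receptor subunit and a calcium-activated chloride channel. GRIK4 was 317, 318, 309.9 and 299 CPM in DMSO and 239, 240.4 and 249 CPM at 24 h, a log2 fold change of -0.36 ± 0.04 (edgeR adjusted p 6.82e-05). ANO1 went from 31.03, 33.9, 28.6 and 27.4 CPM to 21.8, 22.7 and 20.1 CPM, a log2 fold change of -0.48 ± 0.10 (edgeR adjusted p 0.0202). ANO1 lost its call without 24 h replicate 4. At 4 h the log2 fold changes of both against DMSO were near these values (-0.40 for GRIK4 and -0.51 for ANO1). OLFM1, a secreted olfactomedin, fell by 0.51 ± 0.08 on the log2 scale (edgeR adjusted p 0.00136). SPINK5, a serine protease inhibitor of epithelia, was 138, 116, 151 and 138 CPM in DMSO and 85.2, 99.4 and 102 CPM at 24 h (log2 fold change -0.50 ± 0.11, edgeR adjusted p 0.0254). SPINK5 lost its call without 24 h replicate 2 and without 24 h replicate 3. MYBL1 and TOP2A, both of the cell cycle, complete the named protein coding falls and are described with their groups.

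The remaining falls were 3 noncoding genes and 2 protein coding models without a symbol. YEATS2-AS1 (-0.59 ± 0.09), ENSG00000254084 (-0.49 ± 0.11) and LINC00885 (-0.37 ± 0.09) had edgeR adjusted p-values of 0.00118, 0.0381 and 0.0595. YEATS2-AS1 lies opposite YEATS2, which had a mean of 1795 counts. ENSG00000250644 (-0.39 ± 0.08, edgeR adjusted p 0.0174) shares its strand with IFITM10, and ENSG00000260851 (-0.41 ± 0.09, edgeR adjusted p 0.0378) shares its strand with TK2, so their reads are uncertain. LINC00885 lost its call in 5 of the 7 fits without 1 library, ENSG00000254084 and ENSG00000260851 in 3 each, and ENSG00000250644 without 24 h replicate 2.

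**Figure D2:**
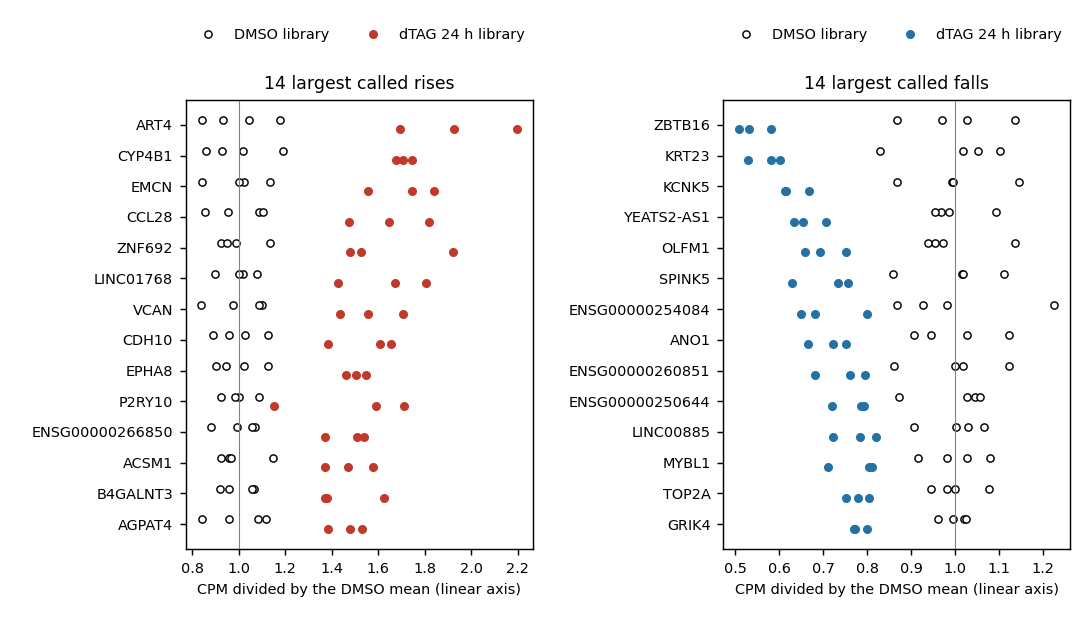
CPM of each library divided by the mean of the 4 DMSO libraries (linear axis) for the 14 largest called rises (left) and the 14 largest called falls (right), with DMSO libraries as open circles and 24 h libraries as filled circles. In every gene shown the 3 filled circles lie on one side of the 4 open circles, most narrowly for P2RY10. Genes were chosen as called and with the same direction in all 3 same-numbered pairs, so this separation is largely set by the choice. It held in 9.49% of all genes.

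Genes of mitosis made up 24 of the 42 called genes that stood on any list. The lists were chosen with earlier results of these data known. This count and the shares below describe the lists and are no test of enrichment. Passage through G2 and mitosis needs a burst of expression of kinases, cyclins, kinetochore and spindle proteins, most of which share promoter elements read by the DREAM and MYB-MuvB complexes. Of 93 mitosis genes on 4 lists, 24 were called lower and 0 higher, where 0.299% of all genes were called lower, and their median log2 fold change was -0.23 against 0.00256 over all genes. With the block, 54 were called lower and 0 higher, where 1.22% of all genes were. The log2 fold change was below 0 for 91 of the 93. The median lay between -0.25 and -0.20 in every fit that was run, but the number called lower rested on single libraries: it was 9 without 24 h replicate 3, 13 without 24 h replicate 2, 14 without DMSO replicate 1, and 0 with all libraries of replicate number 3 left out. It was 2 when libraries were scaled by total counts alone.

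Among the kinases, cyclins and checkpoint genes, 6 of 25 were called lower (15 with the block), with a median log2 fold change of -0.23. BUB1, a spindle checkpoint kinase, was 55.2, 54.3, 52.1 and 52.5 CPM in DMSO and 43.96, 41.6 and 47.1 CPM at 24 h. Every 24 h library was below every DMSO library, and the log2 fold change was -0.28 ± 0.05 (edgeR adjusted p 0.00315). AURKA, the centrosomal Aurora kinase, was 88.1, 83.7, 82.2 and 79.9 CPM in DMSO and 69.1, 67.7 and 74.8 CPM at 24 h, again without overlap (log2 fold change -0.24 ± 0.05, edgeR adjusted p 0.0132). CDK1, the kinase that starts mitosis, went from 119, 115, 135 and 119 CPM to 104, 103 and 101 CPM, a log2 fold change of -0.25 ± 0.05 (edgeR adjusted p 0.0282). CCNA2, the cyclin A partner of CDK1 and CDK2, went from 29.5, 28.5, 29.7 and 30.9 CPM to 23.7, 23.7 and 25.3 CPM, a log2 fold change of -0.29 ± 0.07 (edgeR adjusted p 0.0407). Without 24 h replicate 3, AURKA, CCNA2 and CDK1 lost their calls, and in all CCNA2 did so in 3 and CDK1 in 2 of the 7 fits without 1 library. CCNA2 lies opposite EXOSC9. The other 2 called members were TTK and CCNB2, with log2 fold changes of -0.35 ± 0.09 and -0.23 ± 0.06. CCNB1 (-0.28 ± 0.09, edgeR adjusted p 0.287, 0.0082 with the block) was called only with the block, and PLK1 (-0.12 ± 0.07, edgeR adjusted p 0.818) in neither fit.

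Spindle, kinesin and cytokinesis genes had the highest share of calls, 13 of 29 (23 with the block), and a median of -0.25. CIT, the citron kinase of the cleavage furrow, was 183, 179, 178 and 172 CPM in DMSO and 154, 144 and 151 CPM at 24 h. ANLN, the actin-binding protein anillin of the contractile ring, was 266, 252, 261 and 260.4 CPM in DMSO and 213, 221 and 225 CPM at 24 h. Neither gene's groups overlapped, and the log2 fold changes were -0.25 ± 0.04 and -0.24 ± 0.04 with edgeR adjusted p-values of 0.00116 and 0.00118. KIF4A, a chromosome-bound kinesin, went from 67.8, 62.4, 68.4 and 64.8 CPM to 53.8, 55.3 and 56.6 CPM (log2 fold change -0.25 ± 0.05, edgeR adjusted p 0.00722). CEP55, a midbody protein of abscission, went from 73.3, 75.6, 74.9 and 75.1 CPM to 65.5, 59.9 and 59.8 CPM (log2 fold change -0.28 ± 0.05, edgeR adjusted p 0.00741). The other 9 called members were KIF14, KIF23, KIF11, TPX2, NUSAP1, HMMR, DLGAP5, ECT2 and RACGAP1, at -0.32 (DLGAP5) to -0.16 (KIF11) on the log2 scale.

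Of 20 kinetochore genes, 2 were called lower (9 with the block), and the median was -0.21, with all 20 below 0. CENPI, a subunit of the inner kinetochore, was 43.98, 40.3, 39.8 and 39 CPM in DMSO and 32.8, 32.9 and 35.5 CPM at 24 h, without overlap (log2 fold change -0.27 ± 0.05, edgeR adjusted p 0.00739). KNL1, the outer scaffold that binds BUB1, was 56.7, 55.97, 55.8 and 60.6 CPM in DMSO and 43.96, 48.7 and 51.7 CPM at 24 h (log2 fold change -0.25 ± 0.06, edgeR adjusted p 0.0452), and KNL1 lost its call in 3 of the 7 fits without 1 library. Of 19 genes of anaphase, mitotic exit and chromosome compaction, 3 were called lower (7 with the block), with a median of -0.17. TOP2A, the topoisomerase that untangles sister chromatids, had the largest change of these, from 207, 182, 192 and 188 CPM to 144, 149.5 and 155 CPM (log2 fold change -0.36 ± 0.07, edgeR adjusted p 0.00998). PTTG1, which encodes securin, went from 39.4, 35.4, 35.1 and 33.6 CPM to 30.1, 30.7 and 30.6 CPM (log2 fold change -0.23 ± 0.05, edgeR adjusted p 0.042), and PTTG1 lost its call in 4 of the 7 fits. NCAPD3, a condensin subunit, was at -0.13 ± 0.03 (edgeR adjusted p 0.092) and lost its call in 7 of 7 fits without 1 library. MKI67, a proliferation marker, was 105, 97.5, 95.4 and 92.5 CPM in DMSO and 84.5, 78.6 and 83.3 CPM at 24 h without overlap, but its log2 fold change of -0.25 ± 0.10 was not called (edgeR adjusted p 0.562, 0.233 with the block) except with replicates 2 to 4 of both groups alone and the block (-0.22, edgeR adjusted p 0.0131).

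Promoters of called mitosis genes are shown as examples of the short motifs marked below. They were picked for holding both motifs, so the sharing among them is not a result. The sequences are from RefSeq on GRCh38.p14, 130 bases before to 20 bases after the gene start, 5′ to 3′ on the strand of the gene. Capitals mark CCAAT, the core of the NF-Y box (or ATTGG, the same letters on the other strand), and the cell cycle homology region (CHR) pair TTTGAA and TTCGAA (or TTCAAA). CIT, BUB1, KIF4A and CEP55 were the called mitosis genes with the smallest p-values among those with a single promoter that held both motifs, and CCNB2 was added after its values were seen.
CIT (chr12:119877301-119877450, minus strand): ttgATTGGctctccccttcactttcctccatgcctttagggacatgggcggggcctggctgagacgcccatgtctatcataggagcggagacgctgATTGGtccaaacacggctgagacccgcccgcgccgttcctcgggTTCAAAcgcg
BUB1 (chr2:110678044-110678193, minus strand): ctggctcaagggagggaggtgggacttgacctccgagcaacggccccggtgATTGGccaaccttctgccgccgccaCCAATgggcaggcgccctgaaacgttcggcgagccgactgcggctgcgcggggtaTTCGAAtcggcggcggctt
KIF4A (chrX:70289974-70290123, plus strand): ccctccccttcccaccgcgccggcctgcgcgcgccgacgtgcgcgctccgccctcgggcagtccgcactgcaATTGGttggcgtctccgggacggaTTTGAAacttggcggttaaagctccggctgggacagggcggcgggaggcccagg
CEP55 (chr10:93496482-93496631, plus strand): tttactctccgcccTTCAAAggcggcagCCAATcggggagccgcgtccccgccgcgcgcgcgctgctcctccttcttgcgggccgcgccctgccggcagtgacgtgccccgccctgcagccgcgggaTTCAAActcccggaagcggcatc
CCNB2 (chr15:59105016-59105165, plus strand): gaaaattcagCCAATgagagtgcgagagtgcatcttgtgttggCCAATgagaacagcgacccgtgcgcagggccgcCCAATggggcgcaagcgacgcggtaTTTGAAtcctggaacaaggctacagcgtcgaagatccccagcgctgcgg
CCNB2 has 3 CCAAT matches, at -120, -87 and -54 from the gene start, before a CHR match at -29, and KIF4A has one of each at -58 and -34. In BUB1 and CIT the CHR match starts 2 and 11 bases after the gene start.

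Over the 300 bases that the table gives for each promoter (250 before to 50 after the start), both motifs were found together in 6.38% of all 35116 promoters and in 5.25% of the 20401 promoters of kept genes. Promoters of called lower mitosis genes held both in 69.6% (16 of 23 promoters, 95% Wilson interval 49.1 to 84.4). Mitosis genes that were not called held both in 44.6% (33 of 74 promoters, 33.8 to 55.9), and the intervals of the called and the uncalled mitosis genes overlapped. Called lower genes outside the cell cycle lists held both in 7.84% (3.09 to 18.5) of 51 promoters, and called higher genes in 4.94% (2.52 to 9.44) of 162. CCAAT, with or without the CHR pair, was in 34.6% of all promoters, and the CHR pair, with or without CCAAT, in 16.4%. The E2F group joined TTCCCGC with a variant that can overlap a CCAAT box, TTGGCGC, and with the further variants TTCGCGC and, lastly, TTGCCGC, each searched on both strands. These letters were in 30.4% (15.6 to 50.9) of the 23 and in 17.3% of kept promoters. The GATA-type letters AGATAA, or TTATCT, were in 14.2% (9.65 to 20.4) of promoters of called higher genes, 6.58% (2.84 to 14.5) of those of called lower genes and 6.94% (6.6 to 7.3) of those of kept genes. Intervals cover counting error only, promoters of the same gene share sequence, and a match is a description of letters, not a bound site. Of the 78 called lower genes 54 had a promoter in the table, and of the 147 called higher genes 101.

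**Figure D3:**
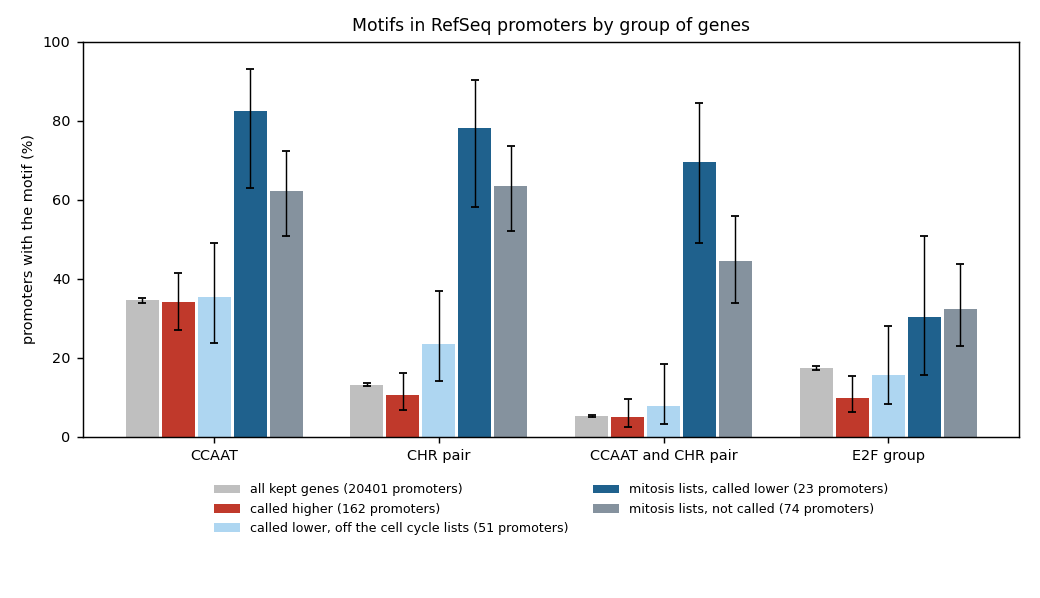
Share of RefSeq promoters (percent, 250 bases before to 50 after the gene start) with CCAAT, the CHR pair, both, or an E2F motif, for 5 groups of genes, with 95% Wilson intervals as error bars. Called lower mitosis genes (dark blue, 23 promoters) and uncalled mitosis genes (slate, 74) stand at 69.6% and 44.6% for both motifs together, above the 5.25% of kept genes (grey).

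Regulators of these genes moved in part. The E2F factors, the RB family and the DREAM complex act upstream of S phase and mitosis genes, and 2 of 20 members were called lower (6 with the block), with a median of -0.11. Over all genes, 0.299% were called lower (1.22% with the block). MYBL1, a MYB family activator, was 232, 196, 221 and 211 CPM in DMSO and 153, 174 and 173 CPM at 24 h, without overlap (log2 fold change -0.37 ± 0.06, edgeR adjusted p 0.00374). RBL1, the pocket protein p107 of DREAM, went from 159, 155, 153 and 146 CPM to 133, 127 and 132 CPM (log2 fold change -0.23 ± 0.05, edgeR adjusted p 0.0367). RBL1 lost its call in 3 of the 7 fits without 1 library. E2F1 (-0.27 ± 0.08) and E2F7 (-0.13 ± 0.05) were called only with the block (edgeR adjusted p 0.0416 and 0.0902), and MYBL2, the MYB partner of the mitotic complex, was at -0.15 ± 0.07 (edgeR adjusted p 0.63).

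Of 22 G1 cyclins, kinases and inhibitors, 1 was called higher and 0 lower, and the median was -0.02. The called gene was CCNG2, an atypical cyclin linked to cell cycle arrest, at 43.98, 42.7, 47.3 and 43.1 CPM in DMSO and 53.3, 59.9 and 59.2 CPM at 24 h, with no overlap (log2 fold change 0.38 ± 0.07, edgeR adjusted p 0.0135). It lost its call without 24 h replicate 3. CCND1, the estrogen-responsive cyclin D1, was 166, 179, 161 and 159 CPM in DMSO and 169, 153 and 147 CPM at 24 h. These groups overlapped, and the log2 fold change of CCND1 was -0.09 ± 0.08 (edgeR adjusted p 0.891). The inhibitors CDKN1A and CDKN1B were at 0.04 ± 0.09 and 0.04 ± 0.07 and were not called. CDC25A, a phosphatase that activates CDK2, was called lower only with the block (-0.21 ± 0.06, edgeR adjusted p 0.103, 0.00944 with the block).

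S phase genes lay below DMSO by about 0.1 on the log2 scale. Among 48 genes of origin licensing and the replication fork, 47 were below 0, with a median of -0.11. With the block 8 were called lower (16.7%, against 1.22% of all genes), and without the block 1 (2.08% against 0.299%). It was POLE2, a subunit of the leading strand polymerase, at 48.97, 51.03, 50.3 and 54.1 CPM in DMSO and 44.4, 43.5 and 43.2 CPM at 24 h (log2 fold change -0.23 ± 0.05, edgeR adjusted p 0.0481), and POLE2 kept its call in 2 of the 7 fits without 1 library. PCNA, the sliding clamp, was 77.7, 93.6, 80.8 and 91.9 CPM in DMSO and 84.7, 83.4 and 74.2 CPM at 24 h with overlapping groups. MCM2, a helicase subunit, was at -0.09 ± 0.08 and PCNA at -0.09 ± 0.08, and neither was called.

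No gene of the other S phase lists was called without the block. Of 23 genes of recombination and Fanconi repair, 12 were called lower with the block, where 1.22% of all genes were, and the median was -0.14. XRCC2, a gene of strand exchange repair, went from 31.03, 32.9, 33.1 and 30.1 CPM to 26.7, 26.5 and 27.9 CPM (log2 fold change -0.23 ± 0.07, edgeR adjusted p 0.215, 0.0726 with the block). The chromatin genes ATAD2, a bromodomain ATPase, and EZH2, the polycomb methyltransferase, were at -0.16 ± 0.04 and -0.14 ± 0.04, and edgeR gave them adjusted p-values of 0.125 and 0.285 (with the block, 0.0111 and 0.106). RRM2, the small subunit of ribonucleotide reductase, was 169, 165, 167 and 176 CPM in DMSO and 145, 150.3 and 168 CPM at 24 h. Its lowest DMSO library lay below its highest 24 h library, and RRM2 was called only with the block (-0.13 ± 0.06, edgeR adjusted p 0.686, 0.0419 with the block). Of 52 replication-dependent histone genes with enough reads (of 55), 0 were called without the block and 4 lower with it, and the median was -0.15. H3C2 was 99.1, 90.1, 69.6 and 77.3 CPM in DMSO and 69.1, 51.7 and 52.8 CPM at 24 h, with the highest values in DMSO replicates 1 and 2 (-0.54 ± 0.20, edgeR adjusted p 0.426, 0.000303 with the block). Histone genes are near-identical copies and their reads may be split.

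**Figure D4:**
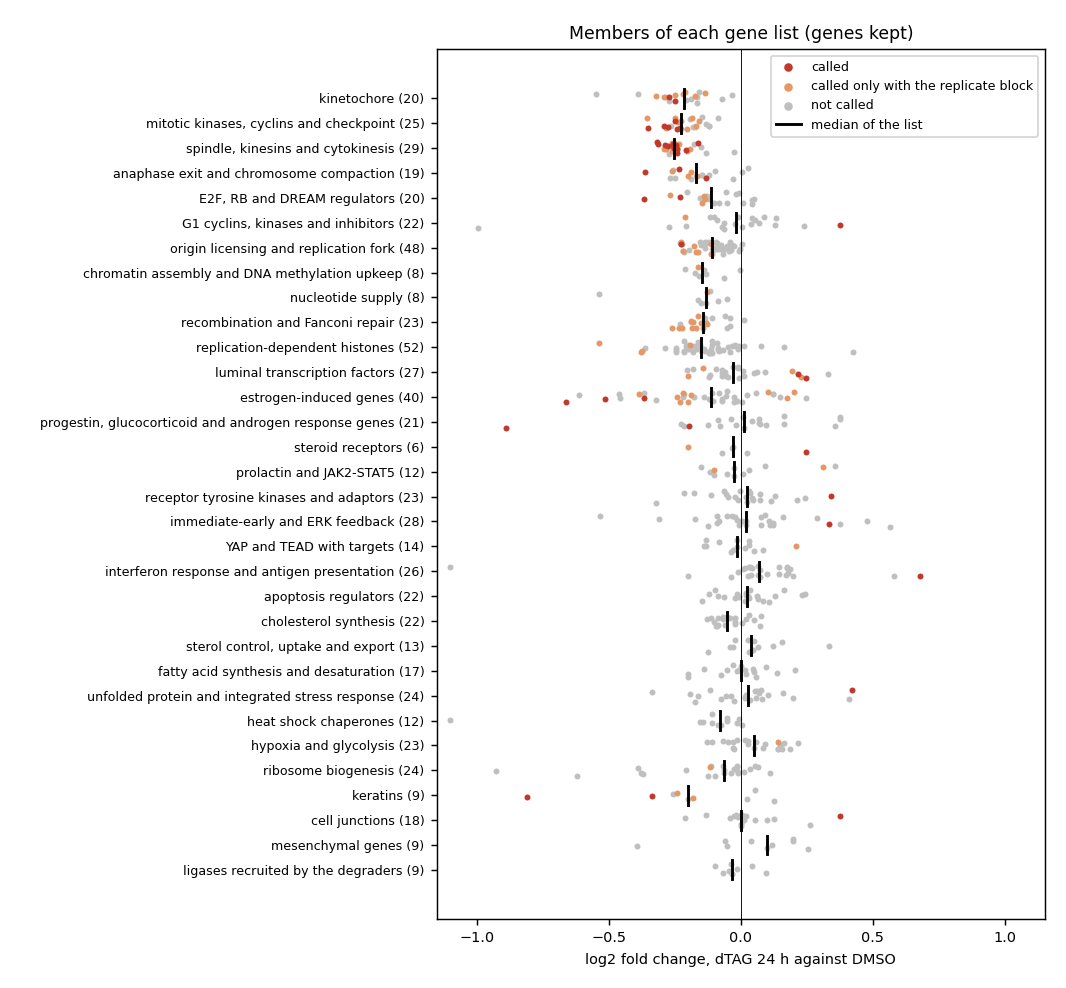
Log2 fold change of 24 h against DMSO for each kept member of the gene lists (points, 2 of them drawn at the axis limit of 1.1 below 0), with the number kept in brackets, called genes in red, genes called only with the replicate block in orange and the median of each list as a black bar. The 4 mitosis lists at the top have medians from -0.25 to -0.17, the S phase lists from -0.15 to -0.11, and most other lists lie near 0.

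Of the genes that mark luminal identity, ESR1, GATA3 and FOXA1 were not called. ESR1 was 2536, 2358, 2686 and 2527 CPM in DMSO and 2243, 2427 and 2535 CPM at 24 h, and GATA3 was 1113, 1078, 1092 and 1077 CPM in DMSO and 1065, 1019 and 1074 CPM at 24 h. ESR1 overlapped between groups and the 24 h values of GATA3 lay just under those of DMSO, with log2 fold changes of -0.07 ± 0.06 and -0.05 ± 0.03 that were not called (edgeR adjusted p 0.875 and 0.855). FOXA1, a pioneer factor, was 183, 154, 160.0 and 151 CPM in DMSO and 161, 160.1 and 162 CPM at 24 h (-0.01 ± 0.06, edgeR adjusted p 1), with a sign that changed with the fit. Over all genes, 0.564% were called higher and 0.299% lower (1.43% and 1.22% with the block). Of 27 luminal transcription factors, 2 were called higher and 0 lower (4 and 2 with the block). EHF, an epithelial ETS factor and one of the 2, rose from 429.9, 397, 424 and 393 CPM to 476, 469 and 486 CPM (log2 fold change 0.21 ± 0.05, edgeR adjusted p 0.0266). The 24 h libraries of EHF all lay above its DMSO libraries, and EHF lost its call in 2 of the 7 fits without 1 library. With the block, LMO4 (0.19) and HES1 (0.23) were also called higher, and GRHL2 (-0.14) and PGR lower. PGR, the progesterone receptor, was 2630.5, 2378, 2879 and 2642 CPM in DMSO and 2039, 2390.0 and 2439 CPM at 24 h, with overlap (-0.20 ± 0.08, edgeR adjusted p 0.56, 0.00204 with the block).

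Targets of the steroid receptors were described by 2 lists. Of 40 estrogen-induced genes with enough reads, 3 were called lower (7.5%, against 0.299% of all genes) and 0 higher (with the block, 9 lower, or 22.5% against 1.22%, and 3 higher). Of the 40, 30 lay below 0, where 49.1% of all genes did, with a median of -0.11 (-0.06 with the block). Their median against DMSO was -0.04, -0.10, -0.14 and -0.06 after 0.5, 1, 2 and 4 h, so a median below 0 was not particular to 24 h. The 3 called lower without the block were KCNK5, MYBL1 and OLFM1, given above, and GREB1, a widely used estrogen receptor target, was at -0.02 ± 0.04 (edgeR adjusted p 1). With the block, AREG, an EGFR ligand (-0.23), CA12, a carbonic anhydrase (-0.22), and CXCL12, a chemokine (-0.19), were lower, while RERG (0.20) and PDZK1 (0.10) were higher. Of 21 progestin, glucocorticoid and androgen response genes, 2 were called lower (9.52%) and 0 higher, 9 lay below 0 and the median was 0.01. They were ZBTB16 and FKBP5, a cochaperone of the steroid receptors, which went from 316, 289.9, 316 and 303 CPM to 259, 264 and 278 CPM (log2 fold change -0.20 ± 0.05, edgeR adjusted p 0.0493). FKBP5 lost its call in 4 of the 7 fits without 1 library.

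In growth factor signalling, 1 of 23 receptor tyrosine kinases and adaptors was called, higher. IRS1, the adaptor of the insulin and IGF1 receptors, rose from 97.2, 89.03, 100.4 and 91.5 CPM to 119.7, 117 and 123 CPM with no overlap (log2 fold change 0.34 ± 0.05, edgeR adjusted p 0.00173). Of 28 immediate-early and ERK feedback genes, 1 was called, higher: PHLDA1, a pleckstrin homology-like gene, from 84.3, 73.3, 84.2 and 74.2 CPM to 99.6, 103 and 96.1 CPM (log2 fold change 0.33 ± 0.07, edgeR adjusted p 0.0368), which lost its call in 4 of the 7 fits. Of 12 prolactin and JAK2-STAT5 genes 0 were called without the block, and PIP, the prolactin-induced protein, was called higher (0.31, edgeR adjusted p 0.00798) and PRLR, the prolactin receptor, lower (-0.10, edgeR adjusted p 0.0795) with it. JAK1, a cytokine receptor kinase, was at -0.12 ± 0.05 and was not called (edgeR adjusted p 0.491). Of 14 YAP and TEAD genes 0 were called without the block, with TEAD4, a TEAD factor, at -0.13 ± 0.05, and CRIM1, a transmembrane BMP antagonist, was higher with the block (0.21, edgeR adjusted p 0.00391).

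Of 26 interferon response and antigen presentation genes, 22 lay above 0 with a median of 0.07, where 13260 of all 26057 genes lay above 0. Of the 26, 1 was called, higher, where 0.564% of all genes were called higher. OAS1, an antiviral enzyme, was 5.98, 3.98, 3.58 and 4.23 CPM in DMSO and 7.81, 6.97 and 6.34 CPM at 24 h, at a mean of 63.7 counts per library (log2 fold change 0.68 ± 0.17, edgeR adjusted p 0.0736), and OAS1 lost its call in 6 of the 7 fits. The apoptosis regulators had 0 of 22 called, with BIK, a BH3-only gene, at 0.24 ± 0.11 and BIRC3, an inhibitor of apoptosis, at 0.23 ± 0.12. BIK was 14.3, 21.3 and 20.3 CPM at 24 h against 15.8, 16.05, 15.2 and 16.3 CPM in DMSO, with 24 h replicate 2 below all DMSO libraries. None of the 9 genes of the ligases that the degraders recruit was called, with CRBN, the cereblon substrate receptor, at -0.10 ± 0.06 and ELOB, a subunit of the VHL ligase, at 0.10 ± 0.11. At an unadjusted p under 0.05, 1922 of all genes differed.

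The sterol genes had a median near 0 at 24 h and above 0 at 4 h. Cholesterol synthesis and its uptake are controlled by SREBP2, which is held back when sterols are plentiful. Of 22 cholesterol synthesis genes, 0 were called at 24 h against DMSO in either fit, and the median log2 fold change was -0.05, against 0.23 at 4 h. HMGCS1, which makes HMG-CoA, was 64.3, 58.99, 63.7 and 60.9 CPM in DMSO and 61.9, 68.7 and 64.8 CPM at 24 h, with log2 fold changes of 0.51 at 4 h and 0.07 ± 0.05 at 24 h. The 2 time points were compared as a contrast of the same fit of all 23 libraries, whose spread the DMSO libraries and the other times also set. At 24 h, 118 genes (0.453%) differed from 4 h, 45 higher (0.173%) and 73 lower (0.28%), and 460 (1.77%) with the block. In a fit of the 24 h and 4 h libraries alone edgeR called 0 genes, with 1486 at an unadjusted p under 0.05, and with replicates 2 to 4 of these groups and the block it called 1056. Of the cholesterol synthesis genes 8 were lower at 24 h than at 4 h (13 with the block), and 0 were higher. IDI1, the isopentenyl diphosphate isomerase, was 75.8 ± 4.36 CPM (SD, n = 4) at 4 h and 60.2 ± 1.12 CPM (SD, n = 3) at 24 h, a log2 difference of -0.33 (edgeR adjusted p 0.0041). SQLE, the squalene epoxidase, and HMGCS1 differed by -0.44 and -0.44 (edgeR adjusted p 0.00403 and 0.000192). The sterol sensor INSIG1 differed by -0.59 (edgeR adjusted p 0.015). The count of 118 rested on single libraries, from 34 without 24 h replicate 2 to 100 without 4 h replicate 4.

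Against 4 h, 30 of the 93 mitosis genes were lower at 24 h (63 with the block) and 0 were higher, with a median log2 difference of -0.26. Against DMSO, the median of the mitosis genes was 0.00, -0.01, 0.02 and 0.05 after 0.5, 1, 2 and 4 h, and -0.23 after 24 h, all set against the same DMSO libraries. TOP2A was 200.5 ± 21.5 CPM (SD, n = 4) at 4 h and 149.5 ± 5.23 CPM (SD, n = 3) at 24 h, a log2 difference of -0.42 (edgeR adjusted p 0.00634). AURKA and CIT, with log2 fold changes of 0.11 and 0.04 at 4 h, were lower at 24 h than at 4 h by -0.35 and -0.30 (edgeR adjusted p 0.00113 and 0.000648). In the S phase lists, 1 of 139 genes was lower at 24 h than at 4 h (20 with the block) and the median difference was -0.10. These lists differed. The median difference was -0.21 for the histone genes, which held 12 of the 20 calls with the block. For origin licensing and the replication fork it was -0.02, and these genes already had a median of -0.07 against DMSO at 4 h. Of the 14 genes with the largest rises against DMSO, 0 were called against 4 h, with differences from -0.10 (ENSG00000266850) to 0.32 (EMCN).

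**Figure D5:**
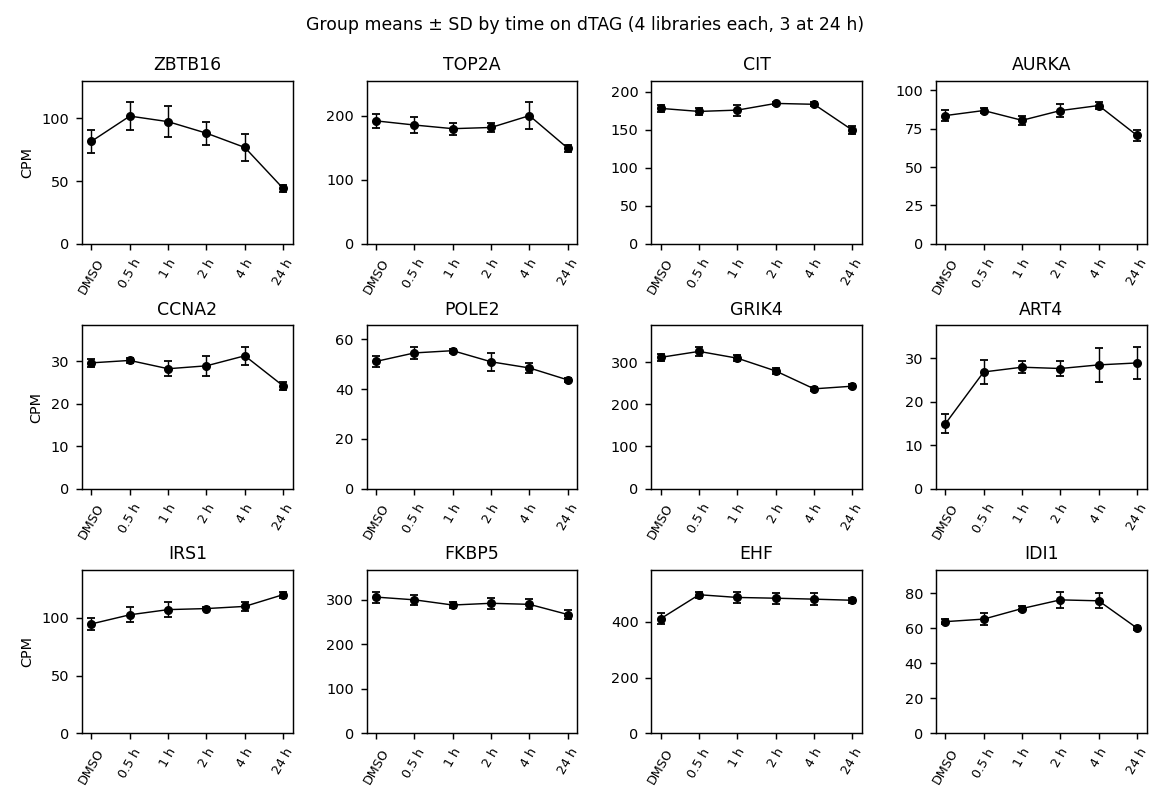
Group mean CPM with SD (4 libraries per group, 3 at 24 h) for 12 genes in DMSO and after 0.5, 1, 2, 4 and 24 h of dTAG, with the time points evenly spaced and each y axis starting at 0. TOP2A, CIT, AURKA and CCNA2 are near their DMSO level to 4 h and lower at 24 h, ZBTB16 is highest at 0.5 h and lowest at 24 h, ART4 is high from 0.5 h, and IDI1 is higher at 2 and 4 h than at 24 h.

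Fatty acid and sterol transport genes were not called against DMSO. Of 17 fatty acid genes and 13 sterol control, uptake and export genes, 0 were called in either fit, and their medians were 0.00 and 0.04. LPIN1, a phosphatidate phosphatase, was at 0.20 ± 0.09, ELOVL7, a fatty acid elongase, at -0.14 ± 0.09, and ABCA1, the cholesterol exporter, at 0.33 ± 0.18 with a mean of 36 counts per library. MYLIP, a ubiquitin ligase, was at 0.12 ± 0.08 and ACAT2, a thiolase, at -0.13 ± 0.08. None of these passed the test.

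The stress lists gave a single call. Among 24 genes of the unfolded protein and integrated stress responses, DDIT4, an inhibitor of mTORC1, rose from 19.4, 22.1, 18.4 and 19.7 CPM to 27.7, 27.6 and 24.3 CPM with no overlap (log2 fold change 0.42 ± 0.09, edgeR adjusted p 0.0189). DDIT4 lost its call without 24 h replicate 2 and without 24 h replicate 3. Of 12 heat shock chaperones and 23 hypoxia and glycolysis genes, 0 were called without the block, with DNAJB1, an HSP40 cochaperone, at -0.11 ± 0.06 and BNIP3, a mitophagy receptor, at 0.19 ± 0.09. PFKFB3, which makes the activator of glycolytic phosphofructokinase, was 0.14 ± 0.05 and was called higher with the block (edgeR adjusted p 0.271, 0.0101 with the block). Of 24 ribosome biogenesis genes 0 were called without the block, and WDR12, a ribosome assembly factor, was called lower with it (-0.12 ± 0.07, edgeR adjusted p 0.0774). DKC1, the pseudouridine synthase and host of snoRNA genes, was at -0.62 ± 0.38 with 65.5, 56.9, 35.6 and 35.9 CPM in DMSO, again highest in DMSO replicates 1 and 2.

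Among the keratin genes KRT23, given above, and KRT15 fell. Of 9 keratin genes with enough reads (of 16), 2 were called lower and 0 higher (4 and 0 with the block), with a median of -0.20. Over all genes, 0.299% were called lower (1.22% with the block). KRT15, a type I keratin of progenitor-like epithelium, was 119, 97.3, 96.1 and 102 CPM in DMSO and 79.3, 81.1 and 86.1 CPM at 24 h (log2 fold change -0.33 ± 0.08, edgeR adjusted p 0.0602), without overlap, but KRT15 kept its call in 2 of the 7 fits without 1 library. KRT19, a luminal keratin, went from 362, 341, 310.1 and 311 CPM to 296, 271 and 271 CPM (-0.24 ± 0.07, edgeR adjusted p 0.12, 0.000917 with the block). Among 18 cell junction genes, PKP2, a desmosomal plakophilin, was called higher, from 77.6, 77.8, 89.1 and 85.4 CPM to 99.5, 108 and 114 CPM (log2 fold change 0.38 ± 0.06, edgeR adjusted p 0.00193). Of 9 mesenchymal genes 0 were called, with FN1 (fibronectin) at 0.20 ± 0.13 and SPARC at -0.39 ± 0.45, SPARC at a mean of 6.14 counts per library.

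The labelled cell type was checked by markers. The summed level of 10 luminal markers was 7040 to 7820 CPM in DMSO and 6480 to 7150 CPM at 24 h, and none of the 10 was called without the block (2 were lower with it). Of the 10, 9 lay below 0, with a median log2 fold change of -0.08, where 49.1% of all genes lay below 0. Their median against DMSO was -0.13, -0.16, -0.12 and -0.06 after 0.5, 1, 2 and 4 h, so it was not lowest at 24 h. ESR1 and PGR had the highest levels in the sum. KRT8 was 116 to 146 CPM in DMSO and 106 to 112 CPM at 24 h. Of 6 basal and myoepithelial markers, KRT5, KRT14 and CNN1 were under 1 CPM in every library, and the sum was 43.5 to 50.1 CPM in DMSO and 50.1 to 53.1 CPM at 24 h. TP63, the basal regulator p63, was 20.8, 20.03, 19.97 and 18.3 CPM in DMSO and 26.8, 29.5 and 27.01 CPM at 24 h and was called higher (log2 fold change 0.49 ± 0.09, edgeR adjusted p 0.00722). Its log2 fold change was 0.49 at 1 h. The other basal markers with enough reads did not rise. MYLK was 13.9 to 19.8 CPM in DMSO and lower, at 13.3 to 13.5 CPM, at 24 h. ACTA2 was 9.19 to 10.3 CPM in DMSO and 9.2 to 9.95 CPM at 24 h. Neither MYLK nor ACTA2 was called, with or without the block. The sums of fibroblast markers (15.9 to 17 CPM in DMSO, 15.6 to 17.4 at 24 h), endothelial markers (5.12 to 6.45 and 6.19 to 7.38) and immune markers (15.5 to 20.6 and 17 to 19.9) were low. Among them COL3A1, COL1A1, PTPRC and CD68 were not called, and 9 of these 17 markers were under 1 CPM in every library. In bulk libraries, fewer cells in a phase or of a type and less transcription per cell cannot be told apart.

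Long genes were called more often than short ones. Of protein coding genes that span under 5 kb, 0.0848% were called (1 of 1179), against 1.18% at 20 to 100 kb, 1.95% at 100 to 500 kb and 2.48% (8 of 322) above 500 kb. The median log2 fold change of these classes lay between -0.00663 and 0.0176. A long gene collects more reads at the same polymerase density, and the part of read number in this difference was not tested.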

How the data were processed

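PRO-seq libraries from T47D dTAG-TRPS1 clone 28 were analysed as the whole-number read counts per gene that the authors deposited in a single table. The authors trimmed adapters with cutadapt 1.8.1, removed duplicates by unique molecular identifier and reads of ribosomal DNA, aligned with Bowtie2 2.4.4 to hg38, sorted with SAMtools 1.9 and counted reads over genes (versions from the submitters' processing notes). Which annotation was counted, and whether strand was used, is not given in the sources used here. Of 60605 genes, 60463 were matched to GENCODE 44 for symbol, position and biotype, which are on hg38.

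Samples were grouped by title. At 24 h, replicate 1 was not analysed here. Genes were filtered with filterByExpr (minimum count 10, minimum total 15) and normalized by TMM in edgeR 4.0.16 (R 4.3.3), and all 23 libraries were fitted in one quasi-likelihood model with 6 groups. The contrasts 24 h minus DMSO and 24 h minus 4 h were tested on both sides with Benjamini-Hochberg adjustment over the 26057 kept genes, and genes under an adjusted p of 0.1 were called. The kept genes held 99.6% of the reads of each of the 7 libraries and mitochondrial genes 2.13 to 3.25%. No pair of these libraries within a group agreed within sampling noise (chi-square per degree of freedom 2.49 to 13.5). Replicate 1 at 4 h had 4408544 reads, a TMM factor of 0.8578 and 6.5% mitochondrial reads. The other 4 h libraries had 10091061 to 12590467 reads and 2.11 to 3.13% mitochondrial reads. Without 4 h replicate 1, 96 genes were called between 24 h and 4 h. Replicates were cells treated and collected at different hours of one day, so p-values measure the spread between these harvests of 1 clone. The replicate number marks a shared harvest, and the same fit with it as a block stands beside the main one. Same-numbered DMSO and 24 h libraries deviated together with r = 0.25, 0.229 and 0.0501 over genes for replicates 2, 3 and 4, against -0.229 to 0.0479 for unlike numbers, and the common dispersion was 0.0249 without and 0.00489 with the block.

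Named genes were TRPS1, ESR1, GATA3, FOXA1, PGR, CCND1, MKI67 and ZBTB16, the 14 largest rises and 14 largest falls among called genes (mean of at least 100 counts, same direction in all 3 same-numbered pairs, so that direction is a condition of the choice), and up to 4 called or 2 uncalled members of each list with the smallest p-value. Some genes that this rule gave are not reported here. Other genes were named after their values were seen. Members and lists were chosen with earlier results of these data known, and lists are described by counts and medians only. Motifs were searched on both strands of RefSeq promoters (GRCh38.p14), matched by symbol for 14349 of 25962 kept symbols. On simulated counts for 24 h against DMSO (25506 genes), the fit called 99 of 100 genes changed by a log2 of 1 and 27 of 100 changed by 0.5, with 10 false calls. Every simulated gene had a dispersion of 0.0249 and no harvest effect, and changed genes had a mean of at least 100 counts. These rates need not hold for the real counts. Alternatives changed the block, the groups fitted, the normalization, the filter, the tool (DESeq2 1.42.0), the libraries and overlapping genes. Fits without a replicate number but with the block were added after the data had been seen.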

Additional observations from a re-analysis of the deposited data

Results flagged for a closer look

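In 4 of 94 named genes, 1 DMSO library lay far from the other 3, where chance gives about 1 in 20. EZH2 and OLFM1 were highest in DMSO replicate 1, at 112.2 and 45.26 CPM. ENSG00000250644 was lowest in DMSO replicate 2, at 382.7 CPM, and IDI1 was lowest in DMSO replicate 4, at 61.78 CPM.

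For 16 named genes the level at 24 h differed from that at 4 h in edgeR (adjusted p under 0.1). The log2 difference, 24 h minus 4 h, was -0.295 for ANLN, -0.35 for AURKA, -0.315 for BUB1, -0.368 for CCNA2, -0.304 for CDK1, -0.346 for CENPI and -0.305 for CEP55. It was -0.296 for CIT, -0.35 for KIF4A, -0.33 for KNL1, -0.28 for PTTG1 and -0.42 for TOP2A, and 12 of the 16 were mitosis genes. It was -0.335 for IDI1, -0.521 for KRT23 and -0.794 for ZBTB16. The mitosis genes had been named for small p-values against DMSO, a contrast that uses the same 24 h libraries. A low 24 h level was thus part of their choice, and the count of 12 depends on it. BIK was the only gene of the 16 that was higher at 24 h, by 0.48, with 24 h replicate 2 at 14.3 CPM and the other 24 h libraries at 21.3 and 20.3 CPM.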

How the results depend on the processing

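Against the 225 genes called at 24 h (118 for 24 h against 4 h), the replicate block gave 691 (460), the 2 compared groups alone 106 (0, with 1486 at an unadjusted p under 0.05), these groups with replicates 2 to 4 and the block 1146 (1056), total counts 110 (18), no low-count filter 126 (50), DESeq2 344 (206) and the 6560 genes without an overlapping gene 57 (30). Median-of-ratios size factors gave 236 (117). Leaving out 1 library gave 106 to 217 (34 to 100), and leaving out 1 replicate number gave 38 to 233 (2 to 129). With the block, leaving out replicate number 1, 2, 3 or 4 gave 1096, 314, 219 and 307 (583, 112, 77 and 159). Of the 53 called genes that the naming rule gave, 29 kept their call in all 7 fits without 1 library and 8 in all 4 fits without 1 replicate number. Beyond the calls named in the report, the block changed no other call of the named genes for 24 h against DMSO. The sign of the log2 fold change turned for 4 uncalled genes: FOXA1 (0.029 with the block, 0.04704 in the 2 groups with replicates 2 to 4 and the block, 0.02306 with total counts, 0.001278 without the filter), and, in fits without 1 library or replicate number, FOXA1 (-0.05497 to 0.05337), ELOB (-0.01081 to 0.1863), COL3A1 (-0.06586 to 0.5109) and COL1A1 (-0.09501 to 0.02811). With replicates 2 to 4 of both groups and the block, 12 of 42 uncalled named genes, MKI67 among them, were called and 50 of 52 kept their call. In all 112 pairings of a gene list with an alternative, the list median differed from its main value by under 0.1 on the log2 scale. That margin is near the size of the S phase medians. Single lists were tried only with the block and with the 2 compared groups alone, and the pooled mitosis and cell cycle lists under every alternative. The causes were not tested. Genes with few reads need larger changes to be called.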

Other observations

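Most called genes stood on none of the lists: 138 of the 147 higher and 45 of the 78 lower. The genes in this section were chosen after their values were seen. Genes with under 100 counts per library held the largest log2 fold changes of all called genes. ACSM6, an acyl-CoA synthetase-like gene, went from 1.57, 3.02, 1.86 and 1.91 CPM in DMSO to 4.71, 6.03 and 5.89 CPM at 24 h, a log2 fold change of 1.43 ± 0.26 (edgeR adjusted p 0.00845). FPR1 and FPR3, receptors for formylated peptides that overlap on opposite strands or with neighbours, were at 0.85 ± 0.17 and 0.77 ± 0.12 (edgeR adjusted p 0.0174 and 0.002). PIK3IP1, an inhibitor of PI3 kinase, was at 0.69 ± 0.14 (edgeR adjusted p 0.0183), and VASH1, the vasohibin tubulin carboxypeptidase, fell from 5.12, 3.84, 4.51 and 4.54 CPM to 2.89, 2.16 and 2.49 CPM (-0.86 ± 0.19, edgeR adjusted p 0.0361). In each of these genes the groups did not overlap.

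Genes with many reads and small errors included PLK2, a polo-like kinase, at 232, 217, 228 and 217 CPM in DMSO and 296, 286 and 296 CPM at 24 h (0.39 ± 0.04, edgeR adjusted p 6.82e-05). RASGRP1, an activator of RAS, went from 88.1, 81.8, 86.5 and 77.4 CPM to 112, 121 and 116 CPM (0.48 ± 0.05, edgeR adjusted p 6.82e-05). RBBP8, the DNA end resection factor CtIP, was at 0.41 ± 0.05 and PRAG1, a pseudokinase, at 0.31 ± 0.04 (edgeR adjusted p 0.000269 and 0.000334). The secreted ligands TGFB2 and TNFSF10 (TRAIL) rose by 0.50 ± 0.07 and 0.39 ± 0.08 on the log2 scale (edgeR adjusted p 0.000739 and 0.0176). Among lower genes off the lists, IQGAP3 (-0.35 ± 0.07), GAS2L3 (-0.34 ± 0.07), ZWILCH (-0.32 ± 0.07) and MELK (-0.22 ± 0.04) are known for roles in division, and their edgeR adjusted p-values were 0.0167, 0.0223, 0.0428 and 0.0197. FAM72B (-0.28 ± 0.07) and FAM72D (-0.27 ± 0.05) are near-identical copies whose reads cannot be told apart with certainty. The subunits of calcium and potassium channels CACNG4 and KCNMA1 were at -0.29 ± 0.05 and -0.26 ± 0.04 (edgeR adjusted p 0.00173 and 0.00208).

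Some called genes lay within 100 kb of each other. On chromosome 19, the zinc finger genes ZNF613, ZNF350 and ZNF614 were called higher together, at 0.32, 0.38 and 0.27 on the log2 scale. CDK1 (lower, -0.25) and RHOBTB1 (higher, 0.43 ± 0.05, edgeR adjusted p 6.82e-05) lay 74586 bases apart on chromosome 10 and moved in opposite directions.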
